A study of Mus musculus with 14 samples.

Results

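RNA-seq of forelimb buds at embryonic day (E) 10.5 was used to compare *Smad4*Δ/Δc mutants with wild types across every function that the transcriptome covers, beyond the BMP and TGFβ gene panels of the study. The comparison comprised 7 of the 14 samples of the series, which were 4 mutants (replicates 1, 2, 4 and 5) and 3 wild types (WT 1, 2 and 3), all with 35 somites. Of 23284 gene symbols counted, 12610 were tested because they had 1 CPM or more in 3 or more of these 7 embryos, CPM being counts scaled to the size of the library. All embryos were on the NMRI background and all carried the PrxCreT/+ transgene, so that CRE expression was common to both groups. The groups differed by design in the *Smad4* alleles, and with them in the chromosome segments linked to these alleles. The wild types were Smad4+/+ PrxCreT/+, whereas the mutants were Smad4∆/∆c PrxCreT/+, with 1 constitutively inactivated and 1 conditionally inactivated *Smad4* allele. The Prrx1 enhancer that drives this CRE acts in the limb bud mesenchyme. Ectoderm, endothelium, blood and immigrating muscle precursors are therefore not direct targets, and outside the mesenchyme mutants retained 1 functional allele where wild types had both. Both forelimb buds of 1 embryo made up 1 replicate, so that replicates are separate embryos. The same genotypes at E10.0 (30 somites, n=3 wild types and n=4 mutants) served as the earlier stage.

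SMAD4 is the common partner of the receptor-activated SMAD proteins, with which it forms the complexes that carry BMP and TGFβ signals to the genome. In the early limb bud, mesenchymal BMP signalling induces its own antagonists, takes part in patterning the antero-posterior axis and is later required for the condensation of cartilage. Transcription factors of the PRRX, TBX, PAX and ALX families then subdivide the mesenchyme, from which cartilage, tendon, dermis and the connective tissue around muscle arise, while muscle cells migrate in from the somites. Expression is given as CPM after normalisation by trimmed mean of M values (TMM), and a log2 fold change is mutant over wild type with its standard error (SE). A gene was called changed if it passed an adjusted *P* of 0.1 (edgeR's exact test, Benjamini-Hochberg adjustment) and differed 1.2-fold or more. Values in a series are given in the order WT 1, 2 and 3 and mutants 1, 2, 4 and 5, and ± marks the SD of a mean or the SE of a log2 fold change, both over n=3 wild types and n=4 mutants.

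Between 34066930 and 57639715 reads were counted on genes per embryo at E10.5. *Smad4* itself (mm9 chromosome 18, 73798663 to 73863434, minus strand) was at 161, 157 and 160.2 in wild types and 39.0, 37.2, 31.7 and 34.1 CPM in mutants. The groups were far apart and mutants retained a remainder of *Smad4* reads (log2 fold change -2.16 ± 0.07, adjusted *P* = 3.1e-112). The reads that remain in the floxed tissue and the reads of cells without CRE cannot be told apart in bulk samples, and in general fewer cells of a type and less RNA per cell cannot be told apart either. The mesenchymal limb genes *Tbx5*, *Hand2*, *Lmx1b* and *Meis1* were detected in every embryo and were not called (log2 fold changes -0.04, -0.14, 0.16 and -0.17). In contrast, *Prrx1* and *Prrx2*, which also mark limb mesenchyme, were both called lower (log2 fold change -0.83 for *Prrx2*). Mutants 4 and 5 stood apart from the other embryos. The first principal component of the 7 embryos, with 35.61% of the variance, separated these 2 from all others of both genotypes, and the ribosomal RNA locus *Rn45s* took 2.319% and 8.05% of their reads but only 0.244% to 0.478% elsewhere. *Rn45s* was called higher (log2 fold change 3.07 ± 1.01, adjusted *P* = 0.014), with values of 3268, 2360.0 and 4697 in wild types and 3247, 3784, 22830.0 and 85770.0 CPM in mutants, and the call was lost without mutant 5, WT 1 and WT 2, with an adjusted *P* of up to 0.39. *Rn45s* was not called with mutants 1 and 2 alone (adjusted *P* = 0.996). Results that rest on these 2 mutants are therefore given with and without them below, and what sets them apart was not tested.

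At E10.5, 477 of the 12610 genes were called, which is 3.78% of those tested. Of these, 279 were higher in mutants (2.21% of those tested) and 198 were lower (1.57%). The median log2 fold change of all tested genes was -0.01. Most changes were modest. The median size of the called changes was 0.61 on the log2 scale, and 49 higher and 35 lower genes changed at least 2-fold. Groups did not overlap in 263 of the 279 higher and 189 of the 198 lower genes, where every mutant lay above every wild type in 6.49% of all genes tested and below in 6.51%. With mutants 1 and 2 alone and with mutants 4 and 5 alone against the same 3 wild types, 203 of the 477 genes passed the threshold in both of these smaller comparisons, which share their embryos with the comparison that chose the genes. The plot of change against expression level shows that, apart from *Rn45s*, genes with few reads carried the largest increases and that most called genes above 100 CPM moved by less than 1 on the log2 scale.

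**Figure D1:**
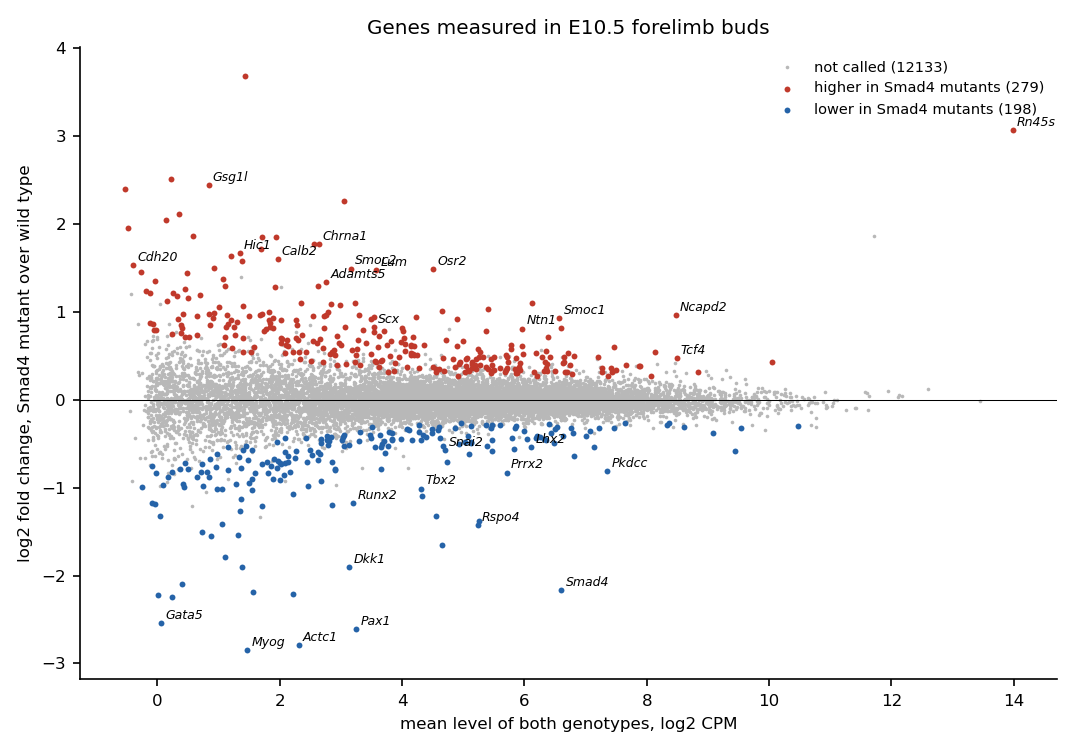
Log2 fold change of mutants over wild types at E10.5 (vertical axis) against the mean level of both genotypes in log2 CPM (horizontal axis) for all 12610 tested genes, with the 279 higher and 198 lower genes in colour. The 2 labelled extremes of the lower genes, *Myog* and *Actc1*, lie at -2.85 and -2.79, and *Smad4* lies at -2.16.

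Among the genes that rose most were several with low levels and unrelated functions. *Gsg1l*, an auxiliary subunit of AMPA-type glutamate receptors, was at 0.462, 0.566 and 0.630 in wild types and 2.95, 2.96, 2.31 and 3.88 CPM in mutants (log2 fold change 2.44 ± 0.20, adjusted *P* = 5.1e-17). *Chrna1*, which encodes the α1 subunit of the muscle acetylcholine receptor, was at 2.45 to 3.25 CPM in wild types and 8.46 to 11.1 CPM in mutants (log2 fold change 1.77 ± 0.15, adjusted *P* = 3.1e-14). *Trpm6*, a channel for magnesium ions, was at 1.46, 1.77 and 1.05 in wild types and 4.86, 5.05, 5.41 and 5.29 CPM in mutants (log2 fold change 1.85 ± 0.21, adjusted *P* = 1.5e-09). The increase was at least 3-fold in each of these 3 genes. The genes with the largest changes were named by size of change and lack of overlap between genotypes. Neither trait of such genes, here or below, is therefore a further result. Genes named from a list were chosen among the called ones by their *P*. Lack of overlap is common to most called genes, as given above, and is no further result for them either. *Wfikkn2*, a secreted protein with protease inhibitor domains that binds GDF8 and GDF11, rose from 2.69 ± 0.820 CPM in wild types to 9.17 ± 1.14 CPM in mutants (log2 fold change 1.77 ± 0.27, adjusted *P* = 2.9e-12). *Calb2*, the calcium-binding protein calretinin, was at 1.85, 2.15 and 1.78 in wild types and 5.09, 4.98, 5.90 and 7.60 CPM in mutants (log2 fold change 1.60 ± 0.17, adjusted *P* = 5.4e-13). *Vax2*, a homeobox factor known from the ventral retina, rose 3.10-fold (adjusted *P* = 2.9e-05), as did *Bmp3* (2.99-fold, adjusted *P* = 1.7e-04), a ligand that opposes other BMPs, and the zinc transporter gene *Tmem163* (2.82-fold, adjusted *P* = 4.6e-11). *Dnahc11* and *Spag17*, which encode parts of motile cilia, rose 4.31-fold and 3.63-fold (adjusted *P* = 5.4e-11 and 3.1e-07), although neither passed 5 CPM in any embryo. *Gm8580* had the largest fitted increase of all tested genes (3.68), with values of 0.393, 0.472 and 0.294 in wild types and 3.48, 4.64, 3.94 and 7.94 CPM in mutants (adjusted *P* = 0.0018). It is a gene predicted from sequence that can share reads with near-identical copies, so that its value is uncertain. 

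The lower genes were led by muscle and patterning genes, which are described with their groups, and by some regulators of other kinds. *Cldn10*, a tight junction protein, was at 2.47, 1.94 and 2.02 in wild types and 0.290, 0.543, 0.734 and 0.469 CPM in mutants (log2 fold change -2.10 ± 0.28, adjusted *P* = 8.2e-11). *Rgs5*, a regulator of G protein signalling known as a pericyte marker, was at 3.02, 3.49 and 3.57 in wild types and 0.835, 1.48, 0.843 and 0.657 CPM in mutants (log2 fold change -1.79 ± 0.28, adjusted *P* = 1.8e-10). *Dync1i1*, an intermediate chain of the dynein motor, was at 3.62, 3.38 and 4.13 in wild types and 1.33, 1.46, 1.22 and 1.03 CPM in mutants (log2 fold change -1.54 ± 0.13, adjusted *P* = 1.8e-12). For these 3 genes too, lack of overlap was part of the rule that named them. *Irf5*, an interferon regulatory factor, fell 2.92-fold (adjusted *P* = 7.9e-07), and *Gdf10*, a BMP-related ligand, fell 2.83-fold (adjusted *P* = 1.6e-06). *Asb4*, an imprinted gene of the ubiquitin ligase machinery, fell from 839.6 ± 13.98 CPM in wild types to 559 ± 79.3 CPM in mutants (log2 fold change -0.59 ± 0.10, adjusted *P* = 4.5e-06).

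Of the regulators and matrix genes of tendon and connective tissue, 25 were tested. Within this list 9 genes rose (6 of them in all 7 fits that left out 1 embryo each) and 2 fell (both in all 7), with a median log2 fold change of 0.22 compared with -0.01 over all tested genes. Called members made up 44% of the list, compared with 3.78% of all tested genes. *Osr2*, a zinc-finger factor of limb connective tissue (mm9 chromosome 15, 35225853 to 35233059, plus strand), was at 10.8, 12.8 and 12.2 in wild types and 29.9, 30.6, 36.8 and 36.5 CPM in mutants (log2 fold change 1.49 ± 0.11, adjusted *P* = 1.3e-07). *Lum*, which encodes the collagen-binding proteoglycan lumican (chromosome 10, 97028135 to 97035337, plus strand), was at 4.23, 6.85 and 7.85 in wild types and 20.1, 17.9, 16.6 and 15.7 CPM in mutants (log2 fold change 1.48 ± 0.26, adjusted *P* = 1.2e-07). *Hic1*, a repressor expressed in mesenchymal progenitors and connective tissue (chromosome 11, 74978067 to 74983021, minus strand), was at 1.13, 1.28 and 1.22 in wild types and 3.02, 3.09, 4.87 and 4.57 CPM in mutants (log2 fold change 1.67 ± 0.19, adjusted *P* = 1.3e-07). Mutants and wild types did not overlap in these genes, and mutants 4 and 5 were not required for any of them to pass the threshold. *Scx*, the transcription factor that marks tendon progenitors, was at 7.62, 7.98 and 9.49 in wild types and 12.4, 12.8, 16.8 and 17.3 CPM in mutants (log2 fold change 0.82 ± 0.16, adjusted *P* = 8.2e-04), and was singled out after its values were seen. *Tcf4*, a basic helix-loop-helix factor also known as E2-2, was at 299, 280.4 and 325 in wild types and 472, 401, 398 and 403 CPM in mutants (log2 fold change 0.47 ± 0.09, adjusted *P* = 1.5e-04). It lies within 5 Mb of *Smad4*, and the modified alleles and the segments linked to them cannot be told apart. It is not to be mistaken for *Tcf7l2*, the WNT effector that marks muscle connective tissue, which was at 43.8 ± 0.861 CPM in wild types and 53.6 ± 2.80 CPM in mutants and was not called (adjusted *P* = 0.38). *Tcf4* is nevertheless counted in the list, among the 9 higher genes, the 6 that passed in all 7 fits and the 44%. *Egr1*, an immediate early gene that also acts in tendon cells, was higher at a low level (2.54 ± 0.510 CPM in wild types and 4.85 ± 0.801 CPM in mutants, adjusted *P* = 9.1e-04). The 2 lower members were *Thbs2*, a matricellular thrombospondin (5.24 ± 0.812 CPM in wild types and 2.77 ± 0.704 CPM in mutants, log2 fold change -0.92 ± 0.22, adjusted *P* = 3.0e-04), and *Twist1*, a mesenchymal transcription factor described below. *Scx* was not called with mutants 1 and 2 alone (adjusted *P* = 0.16). The plot of single genes by embryo shows these levels.

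**Figure D2:**
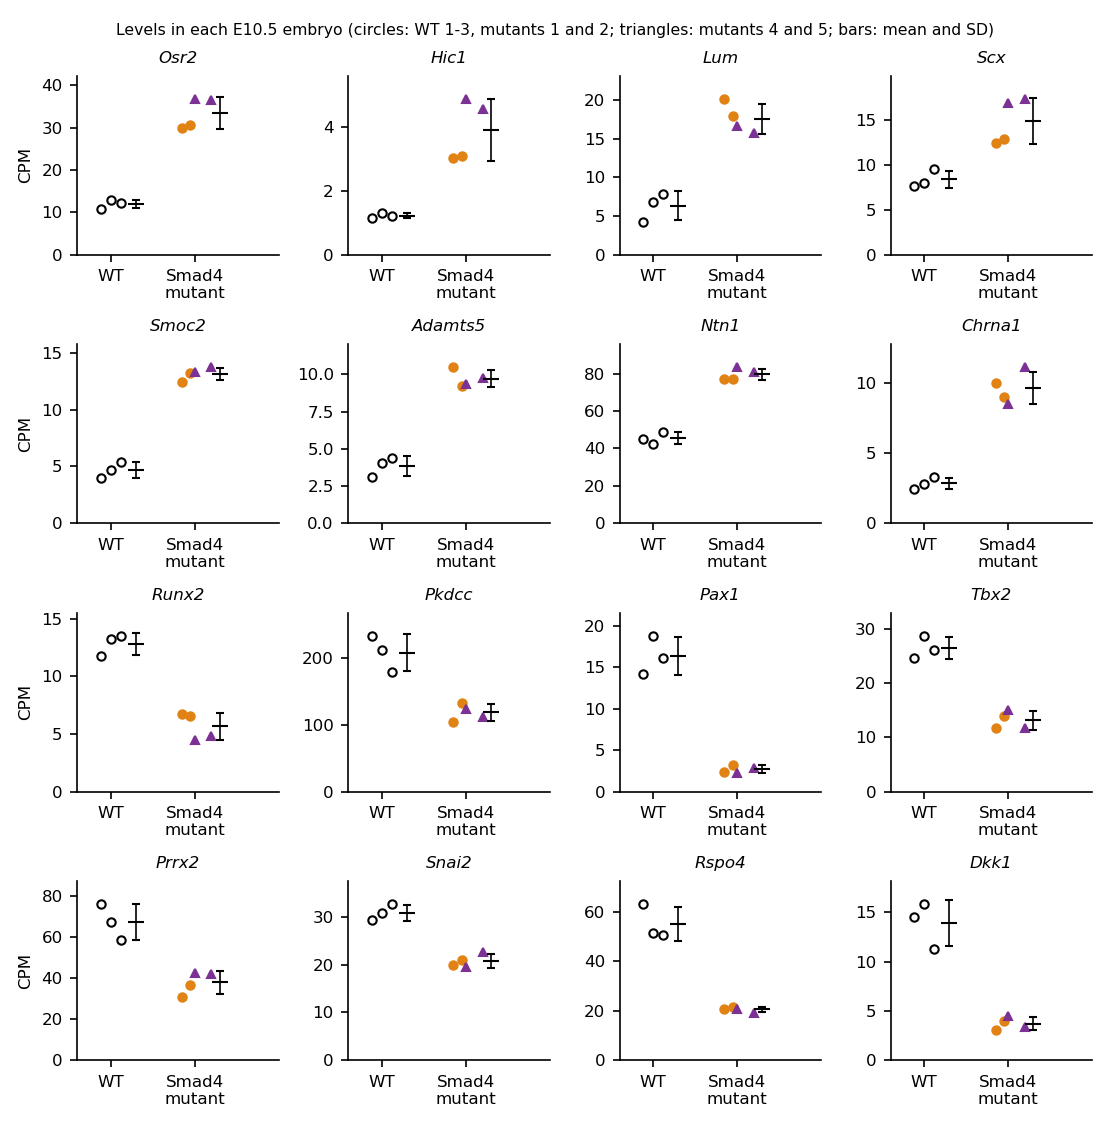
Expression in CPM (vertical axes, a scale for each gene, starting at or just under 0) of genes of several functions in each E10.5 embryo, with 3 wild types and 4 mutants as points and the group mean and SD as bars, and mutants 4 and 5 as triangles. *Osr2* lay between 10.8 and 12.8 CPM in wild types and between 29.9 and 36.8 CPM in mutants.

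Several cartilage and bone regulators were lower. Of 25 tested genes of early cartilage, 2 were higher (*Trps1* and *Col9a2*) and 5 lower (*Runx2*, *Pkdcc*, *Pth1r*, *Fgfr3* and *Hapln1*), of which 4 lower and 0 higher passed in all 7 leave-one-out fits. The exact test thus called 28% of them, compared with 3.78% of all tested genes. The quasi-likelihood test called 4 lower and 0 higher, and the list had a median of 0.06. *Runx2*, the master regulator of osteoblasts (mm9 chromosome 17, 44632936 to 44951746, minus strand), was at 11.7, 13.2 and 13.5 in wild types and 6.73, 6.59, 4.49 and 4.79 CPM in mutants (log2 fold change -1.17 ± 0.16, adjusted *P* = 1.6e-08). *Pkdcc*, a secreted tyrosine kinase required for long bone growth (chromosome 17, 83614623 to 83624410, plus strand), was at 233, 212 and 179 in wild types and 104, 133, 124 and 112 CPM in mutants (log2 fold change -0.81 ± 0.13, adjusted *P* = 3.9e-08). *Pth1r*, the receptor for parathyroid hormone and its related protein, was at 46.2, 40.8 and 37.4 in wild types and 23.5, 27.7, 28.1 and 29.1 CPM in mutants (log2 fold change -0.62 ± 0.11, adjusted *P* = 1.1e-05). No mutant reached the lowest wild type in any of the 3. *Fgfr3*, a brake on chondrocyte proliferation, fell from 8.19 ± 0.196 CPM in wild types to 5.69 ± 0.578 CPM in mutants (log2 fold change -0.52 ± 0.08, adjusted *P* = 0.0022). The factors that start cartilage formation were not called. *Sox9* had a higher mean in mutants but did not pass the threshold, with 68.4 ± 1.57 CPM in wild types and 83.8 ± 2.51 CPM in mutants (adjusted *P* = 0.39). *Sox5* had a log2 fold change of 0.12 and *Sox6* of 0.12, and the cartilage collagen gene *Col2a1* was not called either (0.06). *Sox8*, a relative of *Sox9* and the 1 called member of 11 SOX genes tested, rose from 7.94 ± 0.414 CPM in wild types to 15.2 ± 2.47 CPM in mutants (log2 fold change 0.94 ± 0.12, adjusted *P* = 8.6e-07). *Fgfr3* was not called with mutants 1 and 2 alone (adjusted *P* = 0.105).

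Of 31 transcription factors that pattern the limb bud mesenchyme, 2 rose and 9 fell, compared with 2.21% and 1.57% of all tested genes, although the median of the list was only -0.03. *Pax1*, a paired box factor of the shoulder girdle and sclerotome (mm9 chromosome 2, 147187661 to 147219031, plus strand), was at 14.2, 18.8 and 16.1 in wild types and 2.37, 3.26, 2.20 and 2.88 CPM in mutants (log2 fold change -2.61 ± 0.18, adjusted *P* = 3.8e-16). *Tbx2*, a T-box repressor of the anterior and posterior bud margins (chromosome 11, 85646053 to 85655450, plus strand), was at 24.7, 28.7 and 26.0 in wild types and 11.8, 13.9, 15.1 and 11.7 CPM in mutants (log2 fold change -1.01 ± 0.11, adjusted *P* = 3.5e-09). *Tbx3*, its close relative in the same territories, was at 66.6, 66.4 and 71.1 in wild types and 47.4, 50.0, 45.8 and 40.5 CPM in mutants (log2 fold change -0.57 ± 0.07, adjusted *P* = 2.2e-07). *Tbx2* and *Tbx3* are also among the known BMP responders. *Prrx2*, a paired-related homeobox factor of limb mesenchyme (chromosome 2, 30690492 to 30736761, plus strand), was at 75.8, 67.0 and 58.5 in wild types and 30.5, 36.5, 42.4 and 41.9 CPM in mutants (log2 fold change -0.83 ± 0.15, adjusted *P* = 1.3e-07). *Lhx2*, a LIM homeobox factor of the distal mesenchyme (chromosome 2, 38194801 to 38225253, plus strand), was at 89.5, 80.0 and 76.6 in wild types and 50.7, 53.3, 59.6 and 61.6 CPM in mutants (log2 fold change -0.54 ± 0.09, adjusted *P* = 1.5e-04). In these 5 genes every mutant lay below every wild type, as in 189 of the 198 lower genes. *Tbx15*, a T-box factor of the proximal limb and skin mesenchyme, went the other way, at 220.1, 229 and 235 in wild types and 339.8, 337, 327 and 329 CPM in mutants (log2 fold change 0.55 ± 0.03, adjusted *P* = 4.0e-04). *Tbx18*, its close relative, rose 1.44-fold (adjusted *P* = 0.0053), and the call was lost without WT 1, with an adjusted *P* of up to 0.12. *Tbx4*, the hindlimb counterpart of *Tbx5*, was at 6.35, 7.94 and 8.19 in wild types and 11.8, 11.9, 15.4 and 12.9 CPM in mutants (log2 fold change 0.79 ± 0.14, adjusted *P* = 0.094), and the call was lost without any 1 of the 7 embryos, with an adjusted *P* of up to 0.44. Of 7 T-box genes tested, 3 were thus higher and 2 lower. *Tbx4* was not called with mutants 1 and 2 alone (adjusted *P* = 0.47).

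The Snail and Twist repressors of epithelial genes were lower. *Snai1* was at 37.2, 35.5 and 26.5 in wild types and 17.5, 19.01, 22.9 and 21.6 CPM in mutants (log2 fold change -0.71 ± 0.17, adjusted *P* = 4.1e-04). *Snai2* was at 29.4, 30.8 and 32.7 in wild types and 20.1, 21.0, 19.6 and 22.8 CPM in mutants (log2 fold change -0.57 ± 0.07, adjusted *P* = 9.8e-07). *Twist1* was at 154, 151 and 148 in wild types and 120.3, 120.2, 109 and 119.9 CPM in mutants (log2 fold change -0.36 ± 0.04, adjusted *P* = 5.6e-04). Genotypes did not overlap in these genes, which were 3 of the 4 called members among 10 tested. *Tcf15* (Paraxis), a somite factor of the same list, was higher at 4.37 ± 0.668 CPM in wild types and 6.38 ± 0.949 CPM in mutants (adjusted *P* = 0.083), and the call was lost without mutant 4, mutant 5, WT 2 and WT 3, with an adjusted *P* of up to 0.42. *Zeb1* and *Zeb2*, which act as repressors of the same kind, were not called (log2 fold changes 0.17 and 0.40). *Meis3* fell from 9.51 ± 0.180 CPM in wild types to 5.44 ± 0.472 CPM in mutants (log2 fold change -0.80 ± 0.06, adjusted *P* = 0.0013), whereas *Meis1* and *Meis2*, related TALE homeobox factors of the proximal bud, were not called (-0.17 and -0.25). Of the Hox genes 3 were called, none of them in all 7 leave-one-out fits. Of 19 genes of the HoxA and HoxD clusters, *Hoxd13*, the most distal one, rose 1.40-fold (adjusted *P* = 0.011, and the call was lost without WT 1, with an adjusted *P* of up to 0.17) and *Hoxa2* fell 1.33-fold (adjusted *P* = 0.094, and the call was lost without mutant 2, mutant 4, mutant 5, WT 1, WT 2 and WT 3, with an adjusted *P* of up to 0.36), which is 10.5% compared with 3.78% of all tested genes. Of 14 genes of the HoxB and HoxC clusters, *Hoxb8* fell (log2 fold change -0.59, adjusted *P* = 0.019, and the call was lost without mutant 1 and WT 1, with an adjusted *P* of up to 0.11), and the list had 12 negative log2 fold changes and a median of -0.26. *Tcf15* and *Hoxa2* were not called with mutants 1 and 2 alone (adjusted *P* = 0.61 and 0.49). *Hoxd13* and *Hoxb8* were not called with mutants 4 and 5 alone (adjusted *P* = 0.16 and 0.19).

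Promoter windows of 3 of these genes are shown because they hold the SMAD-binding letters GGCGCC while expression moved in opposite directions. They span 250 bases before to 50 bases after the RefSeq start of the gene in GRCm38.p6, a later build than the mm9 of the counts. *Pkdcc* (chr17:83215033-83215332, plus strand) and *Lhx2* (chr2:38339031-38339330, plus strand) were lower in mutants, and *Sox8* (chr17:25570637-25570936, minus strand) was higher. GGCGCC, which reads the same on both strands, is in capitals.
Pkdcc: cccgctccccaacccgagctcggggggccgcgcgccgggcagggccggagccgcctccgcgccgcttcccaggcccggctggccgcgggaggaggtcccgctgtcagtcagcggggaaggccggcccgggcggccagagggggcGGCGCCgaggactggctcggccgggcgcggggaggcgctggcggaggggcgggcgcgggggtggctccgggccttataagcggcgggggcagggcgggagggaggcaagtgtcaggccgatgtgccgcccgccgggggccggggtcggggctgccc
Lhx2: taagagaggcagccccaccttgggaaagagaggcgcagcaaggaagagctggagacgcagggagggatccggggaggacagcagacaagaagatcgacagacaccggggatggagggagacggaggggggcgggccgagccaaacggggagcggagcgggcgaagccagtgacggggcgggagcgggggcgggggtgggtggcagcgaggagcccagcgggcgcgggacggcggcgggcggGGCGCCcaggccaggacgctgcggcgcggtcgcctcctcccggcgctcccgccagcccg
Sox8: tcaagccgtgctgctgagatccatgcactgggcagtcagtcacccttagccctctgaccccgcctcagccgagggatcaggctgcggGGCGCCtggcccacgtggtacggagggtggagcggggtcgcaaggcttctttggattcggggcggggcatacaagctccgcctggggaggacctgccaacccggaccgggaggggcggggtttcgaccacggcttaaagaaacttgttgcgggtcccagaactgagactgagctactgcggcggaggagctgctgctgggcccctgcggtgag
Of the 12610 tested genes, 9033 had a window in this table. GGCGCC was present in 23.7% of the windows of lower genes (32 of 135), in 20.62% of those of higher genes (40 of 194) and in 22.38% of those of all tested genes, and the shares of called genes were thus near that of all tested genes. Over all 32851 windows of the table the share was 11.87%. The longer palindrome GTCTAGAC, another SMAD-binding sequence that reads alike on both strands, was found in 1.481% of the windows of lower genes (2 of 135), in 0 of 194 of higher genes and in 0.2103% of the windows of tested genes (19 of 9033). A match describes the letters of a window and not a bound site.

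WNT signals maintain limb mesenchyme, and the called genes were a few ligands, modulators and receptors. The called shares were 10.3% of ligands and receptors, 12.5% of modulators and 17.4% of response genes, compared with 3.78% of all tested genes. *Rspo4*, a secreted R-spondin that strengthens WNT signalling (mm9 chromosome 2, 151668663 to 151700404, plus strand), was at 63.0, 51.4 and 50.8 in wild types and 20.7, 21.5, 20.8 and 18.9 CPM in mutants (log2 fold change -1.43 ± 0.11, adjusted *P* = 2.1e-24). *Dkk1*, a secreted WNT antagonist (chromosome 19, 30620353 to 30624155, minus strand), was at 14.6, 15.8 and 11.3 in wild types and 3.03, 3.97, 4.51 and 3.31 CPM in mutants (log2 fold change -1.91 ± 0.19, adjusted *P* = 1.7e-16). An agonist and an antagonist of the pathway thus both fell. *Fzd10*, a WNT receptor, fell from 71.7 ± 3.88 CPM in wild types to 56.04 ± 3.94 CPM in mutants (log2 fold change -0.35 ± 0.07, adjusted *P* = 0.0022). It was 1 of 3 lower genes among 29 ligands and receptors, with 0 higher by the exact test (2 calls by edgeR's quasi-likelihood test and 4 by DESeq2, and 7 in either direction at an unadjusted *P* under 0.05). The other two were the ligands *Wnt5b* (log2 fold change -0.34, adjusted *P* = 0.055), where the call was lost without mutant 1, mutant 5, WT 1, WT 2 and WT 3, with an adjusted *P* of up to 0.40, and *Wnt4* (-0.48, adjusted *P* = 0.096), where the call was lost without mutant 1, mutant 4, mutant 5, WT 1, WT 2 and WT 3, with an adjusted *P* of up to 0.47. Of 24 WNT modulators, 3 fell (*Rspo4*, *Dkk1* and *Dkk2*, the last of which did not pass in all leave-one-out fits) and 0 rose by the exact test (3 calls by edgeR's quasi-likelihood test and 3 by DESeq2, and 8 in either direction at an unadjusted *P* under 0.05). The responses were mixed. Among 23 canonical WNT response genes, 2 rose (*Prickle1* and *Bmp4*) and 2 fell (*Twist1* and *Cdx1*), 2 of them in all 7 leave-one-out fits, and *Axin2* and *Lef1*, the usual readouts, were not called, with 78.8 ± 13.4 CPM in wild types and 78.7 ± 6.70 CPM in mutants for the former (log2 fold change -5.04e-04) and 50.7 ± 3.93 CPM in wild types and 44.9 ± 8.97 CPM in mutants for the latter (-0.17). *Prickle1*, a planar cell polarity component counted in that list, rose from 30.2 ± 0.930 CPM in wild types to 40.2 ± 1.94 CPM in mutants (log2 fold change 0.41 ± 0.04, adjusted *P* = 7.4e-04). *Wnt5b* and *Wnt4* were not called with mutants 1 and 2 alone (adjusted *P* = 0.15 and 0.38). *Wnt5b* and *Wnt4* were not called with mutants 4 and 5 alone (adjusted *P* = 0.18 and 0.16).

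Of 13 tested FGF ligands and receptors 4 were called (30.8%, compared with 3.78% of all tested genes), all in all 7 leave-one-out fits, which were 2 higher ligands and 2 lower receptors. The list had 9 negative log2 fold changes and a median of -0.15. *Fgf9* and *Fgf18*, ligands with low transcript levels in these buds, were higher. *Fgf9* was at 2.08, 1.92 and 2.50 in wild types and 4.68, 4.21, 3.97 and 4.00 CPM in mutants (log2 fold change 0.97 ± 0.13, adjusted *P* = 8.1e-05). *Fgf18* was at 1.32, 1.28 and 1.30 in wild types and 2.25, 2.41, 3.45 and 2.75 CPM in mutants (log2 fold change 1.05 ± 0.14, adjusted *P* = 2.7e-04). *Fgfr2*, the receptor through which ectoderm and mesenchyme exchange FGF signals, was at 108, 94.5 and 109.5 in wild types and 69.6, 82.2, 72.8 and 71.7 CPM in mutants (log2 fold change -0.49 ± 0.09, adjusted *P* = 2.2e-05). *Fgfr3* was lower as given above. *Fgf8*, the main FGF of the apical ectodermal ridge, and *Fgf10*, its mesenchymal partner, were not called (log2 fold changes 0.08 and -0.15). Of the feedback inhibitors that FGF signalling induces, *Spry2* rose from 33.2 ± 1.48 CPM in wild types to 46.6 ± 0.781 CPM in mutants (log2 fold change 0.49 ± 0.04, adjusted *P* = 1.4e-04). *Spry4* also rose (log2 fold change 0.34, adjusted *P* = 0.0087), and the call was lost without WT 3, with an adjusted *P* of up to 0.13. They were the 2 called genes of 21 in the list of FGF feedback and response, in which *Dusp6* was not called (0.23). In the SHH pathway, 1 of 18 tested genes was called, the ligand-binding *Hhip*, which rose 1.54-fold (adjusted *P* = 0.024), and the call was lost without mutant 1, WT 1 and WT 2, with an adjusted *P* of up to 0.25. *Shh*, *Gli1* and *Ptch1*, the ligand and its direct responders, were not called (0.37, 0.05 and 0.23). *Hhip* was not called with mutants 4 and 5 alone (adjusted *P* = 0.24).

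Other signalling axes had 2 to 5 called genes each, or 8.70% (NOTCH) to 27.8% (retinoic acid) of their tested members, compared with 3.78% of all tested genes. In the IGF axis, *Pappa2*, *Igfbp3* and *Irs1* were higher and *Igfbp4* was lower, among 18 genes tested, and 3 of the 4 passed in all 7 leave-one-out fits. *Pappa2*, a protease that frees IGF from its binding proteins, was at 1.59, 1.64 and 1.91 in wild types and 4.63, 2.64, 4.05 and 2.97 CPM in mutants (log2 fold change 1.06 ± 0.21, adjusted *P* = 2.3e-04). *Igfbp4*, an IGF-binding protein that related proteases cleave, was at 618, 637 and 597 in wild types and 462, 492, 483 and 456 CPM in mutants (log2 fold change -0.38 ± 0.04, adjusted *P* = 6.8e-04). *Igfbp3*, another binding protein, was at 60.0, 58.0 and 61.8 in wild types and 100.5, 68.8, 84.7 and 91.1 CPM in mutants (log2 fold change 0.53 ± 0.11, adjusted *P* = 3.8e-04). All 3 separated the genotypes. *Cxcr7*, the scavenging receptor for CXCL12, fell from 29.9 ± 0.385 CPM in wild types to 20.8 ± 1.48 CPM in mutants (log2 fold change -0.52 ± 0.05, adjusted *P* = 5.1e-04). *Cxcl12*, the chemokine itself, rose from 83.5 ± 6.60 CPM in wild types to 117 ± 6.54 CPM in mutants (log2 fold change 0.49 ± 0.08, adjusted *P* = 0.0057), and the call was lost without WT 1, with an adjusted *P* of up to 0.105. *Efnb2*, a membrane-bound ligand of Eph receptors, rose from 154 ± 5.69 CPM in wild types to 192 ± 3.90 CPM in mutants (log2 fold change 0.32 ± 0.03, adjusted *P* = 0.0028). *Efna3*, a ligand of the other class, fell from 4.32 ± 0.772 CPM in wild types to 2.62 ± 0.161 CPM in mutants (log2 fold change -0.71 ± 0.16, adjusted *P* = 9.3e-04). *Hey1*, a target of both NOTCH and BMP signalling, fell from 40.7 ± 4.09 CPM in wild types to 28.9 ± 3.63 CPM in mutants (log2 fold change -0.49 ± 0.12, adjusted *P* = 0.0024) and was 1 of 2 called genes among 23 of the NOTCH list, next to the glycosyltransferase gene *Lfng* (log2 fold change 0.53, and the call was lost without mutant 2, mutant 4, mutant 5, WT 2 and WT 3, with an adjusted *P* of up to 0.36). Retinoic acid genes gave 3 higher (*Cyp26b1*, *Crabp1* and *Stra6*) and 2 lower (*Aldh1a2* and *Rarb*) among 18, 1 of them in all 7 leave-one-out fits. The quasi-likelihood test called 0 higher and 2 lower, and the exact test with mutants 1 and 2 alone called 0 higher and 1 lower. *Cyp26b1*, which degrades retinoic acid in the distal bud, rose from 140.2 ± 9.74 CPM in wild types to 212 ± 11.7 CPM in mutants (adjusted *P* = 0.012), and the call was lost without WT 2, with an adjusted *P* of up to 0.15. *Rarb*, a retinoic acid receptor that is itself induced by retinoic acid, fell 1.33-fold (adjusted *P* = 0.020), and the call was lost without mutant 5 and WT 1, with an adjusted *P* of up to 0.14. *Lfng*, *Hey1*, *Cyp26b1* and *Rarb* were not called with mutants 1 and 2 alone (adjusted *P* = 0.49, 0.18, 0.11 and 0.41).

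Of 55 tested matrix glycoproteins 7 were higher and 2 lower, of which 4 higher and 1 lower passed in all 7 leave-one-out fits. Called members made up 16.4%, compared with 3.78% of all tested genes. The list as a whole had 27 positive and 28 negative log2 fold changes, with a median of -0.01. *Smoc1*, a calcium-binding matrix protein that modulates BMP signals and is needed for digit formation (mm9 chromosome 12, 82127795 to 82287401, plus strand), was at 66.2, 63.8 and 66.7 in wild types and 128, 118, 127 and 126 CPM in mutants (log2 fold change 0.93 ± 0.03, adjusted *P* = 2.8e-15). *Smoc2*, its relative (chromosome 17, 14416513 to 14541797, plus strand), was at 3.97, 4.68 and 5.42 in wild types and 12.5, 13.2, 13.3 and 13.8 CPM in mutants (log2 fold change 1.49 ± 0.13, adjusted *P* = 4.3e-14). *Frem1*, a basement membrane protein, was at 65.7, 59.9 and 74.1 in wild types and 121, 93.2, 91.0 and 84.4 CPM in mutants (log2 fold change 0.55 ± 0.15, adjusted *P* = 0.0016). Mutants lay above wild types in each of these genes. *Thbs1*, a thrombospondin, rose 1.40-fold (adjusted *P* = 8.9e-04), opposite to *Thbs2*. *Lama2*, a laminin chain of muscle and nerve basement membranes, rose from 5.94 ± 2.41 CPM in wild types to 12.8 ± 2.88 CPM in mutants (log2 fold change 1.10 ± 0.37, adjusted *P* = 0.0012). Of 33 collagen genes, 3 were higher (*Col12a1*, *Col6a6* and *Col9a2*, none in all 7 leave-one-out fits) and 0 lower by the exact test, with 4 at an unadjusted *P* under 0.05, 0 calls by edgeR's quasi-likelihood test and 1 by DESeq2. The exact test thus called 9.09% of the collagen genes, compared with 3.78% of all tested genes. *Col12a1*, a fibril-associated collagen of dense connective tissue, was at 21.0, 14.1 and 26.8 in wild types and 52.7, 36.5, 33.7 and 33.4 CPM in mutants (log2 fold change 0.92 ± 0.31, adjusted *P* = 0.0065), and the call was lost without WT 2, with an adjusted *P* of up to 0.18. *Hs3st3b1*, which modifies heparan sulfate, rose 1.31-fold (adjusted *P* = 0.0012) and was the other called proteoglycan gene next to *Lum* among the higher members of that list. *Col12a1* was not called with mutants 4 and 5 alone (adjusted *P* = 0.11).

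Proteases of the matrix and adhesion molecules gave both directions. *Adamts5*, the main aggrecanase, which also cleaves versican (mm9 chromosome 16, 85858415 to 85901370, minus strand), was at 3.09, 4.06 and 4.34 in wild types and 10.5, 9.23, 9.36 and 9.76 CPM in mutants (log2 fold change 1.34 ± 0.15, adjusted *P* = 3.9e-14). *Adamts20*, another versican-cleaving protease, was at 7.92, 10.6 and 9.99 in wild types and 6.03, 6.29, 5.20 and 4.47 CPM in mutants (log2 fold change -0.78 ± 0.17, adjusted *P* = 1.5e-04). *Mmp17*, a membrane-anchored matrix metalloproteinase, fell from 5.33 ± 0.313 CPM in wild types to 3.43 ± 0.646 CPM in mutants (log2 fold change -0.65 ± 0.14, adjusted *P* = 0.0073). All mutants were above all wild types for *Adamts5* and below them for the other two. Of 58 cadherins and protocadherins, 4 were higher (*Cdh20*, *Cdh22*, *Cdh4* and *Fat4*) and 1 lower (*Pcdh7*), 2 of them in all 7 leave-one-out fits. This share of 8.62% compares with 3.78% of all tested genes. *Cdh20*, a cadherin with low levels, was at 0.439, 0.283 and 0.462 in wild types and 1.31, 1.05, 1.06 and 1.09 CPM in mutants (log2 fold change 1.53 ± 0.22, adjusted *P* = 6.9e-06). *Cdh22*, a cadherin of the same type, rose to a level of 1 to 2 CPM (log2 fold change 1.35 ± 0.15, adjusted *P* = 9.4e-05). *Pcdh7*, the lower one, fell 1.37-fold (adjusted *P* = 0.027), and the call was lost without mutant 4 and WT 3, with an adjusted *P* of up to 0.26. The guidance molecules of the semaphorin, slit and netrin families were higher in 6 and lower in 2 of 46 genes (17.4%, compared with 3.78% of all tested genes). Of these, 2 were called in all 7 leave-one-out fits. *Ntn1*, the secreted netrin-1 that guides axons and binds UNC5 and DCC receptors (chromosome 11, 68022866 to 68214325, minus strand), was at 44.9, 42.5 and 49.0 in wild types and 77.2, 76.9, 83.3 and 80.9 CPM in mutants (log2 fold change 0.81 ± 0.07, adjusted *P* = 3.5e-09). *Unc5b*, one of its receptors, fell 1.24-fold (adjusted *P* = 0.020), and the call was lost without mutant 1, mutant 5 and WT 1, with an adjusted *P* of up to 0.20. *Rgmb*, a co-receptor for BMPs and ligand of neogenin (chromosome 17, 15941626 to 15963550, minus strand), was at 11.4, 11.9 and 12.5 in wild types and 23.03, 19.5, 20.6 and 18.8 CPM in mutants (log2 fold change 0.78 ± 0.08, adjusted *P* = 7.8e-09). The genotypes did not overlap in *Ntn1* and *Rgmb*. *Pcdh7* was not called with mutants 1 and 2 alone (adjusted *P* = 0.18). *Mmp17*, *Pcdh7* and *Unc5b* were not called with mutants 4 and 5 alone (adjusted *P* = 0.20, 0.105 and 0.17).

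Channels, receptors of transmitters and carriers, which act mainly in excitable or transporting cells, were called at low levels. Among 60 potassium, sodium and calcium channel genes, 3 were higher (*Trpm6*, *Scn11a* and *Cacna1g*) and 6 lower (*Scn4b*, *Kcnip3*, *Trpm1*, *Kcnn3*, *Hcn4* and *Scn3a*), 4 of them in all 7 leave-one-out fits. That share was 15%, compared with 3.78% of all tested genes. *Scn4b*, a sodium channel β subunit, was at 7.37, 6.39 and 6.61 in wild types and 3.83, 4.02, 4.81 and 4.00 CPM in mutants (log2 fold change -0.71 ± 0.10, adjusted *P* = 9.2e-04). *Kcnip3*, a calcium-binding partner of potassium channels, was at 5.63, 5.43 and 5.27 in wild types and 2.57, 3.65, 3.62 and 3.50 CPM in mutants (log2 fold change -0.71 ± 0.11, adjusted *P* = 0.0069). Both were lower in each mutant than in each wild type. *Gria3*, an AMPA receptor subunit, fell from 3.91 ± 0.478 CPM in wild types to 2.17 ± 0.504 CPM in mutants (log2 fold change -0.84 ± 0.20, adjusted *P* = 0.0046), whereas the AMPA receptor partner *Gsg1l* rose. Of 190 solute carriers, 5 were higher (*Slc8a3*, *Slc14a2*, *Slc48a1*, *Slc12a2* and *Slc1a2*) and 3 lower (*Slc38a3*, *Slc16a3* and *Slc38a4*), 2 of them in all 7 leave-one-out fits, and this share of 4.21% was near the 3.78% of all tested genes. *Slc8a3*, a sodium-calcium exchanger, was at 3.74, 3.24 and 3.86 in wild types and 9.10, 9.19, 8.60 and 8.35 CPM in mutants (log2 fold change 1.29 ± 0.08, adjusted *P* = 1.3e-11). *Gfra3*, the receptor for the neurotrophic factor artemin, rose from 1.18 ± 0.480 CPM in wild types to 3.04 ± 0.545 CPM in mutants (log2 fold change 1.37 ± 0.36, adjusted *P* = 1.6e-04). *Gria3* was not called with mutants 1 and 2 alone (adjusted *P* = 0.22). *Kcnip3* was not called with mutants 4 and 5 alone (adjusted *P* = 0.11).

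The plot of gene groups sets these counts side by side. In total 174 of the 477 called genes belonged to a list, and 10 of the 60 lists held no called gene. The lists together held 1714 of the 12610 tested genes. With 174 of these 1714 called, genes in lists were called more often than the 3.78% of all tested genes. The lists were chosen with earlier results of these data known. A share above 3.78% therefore does not by itself set a list apart from the other lists.

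**Figure D3:**
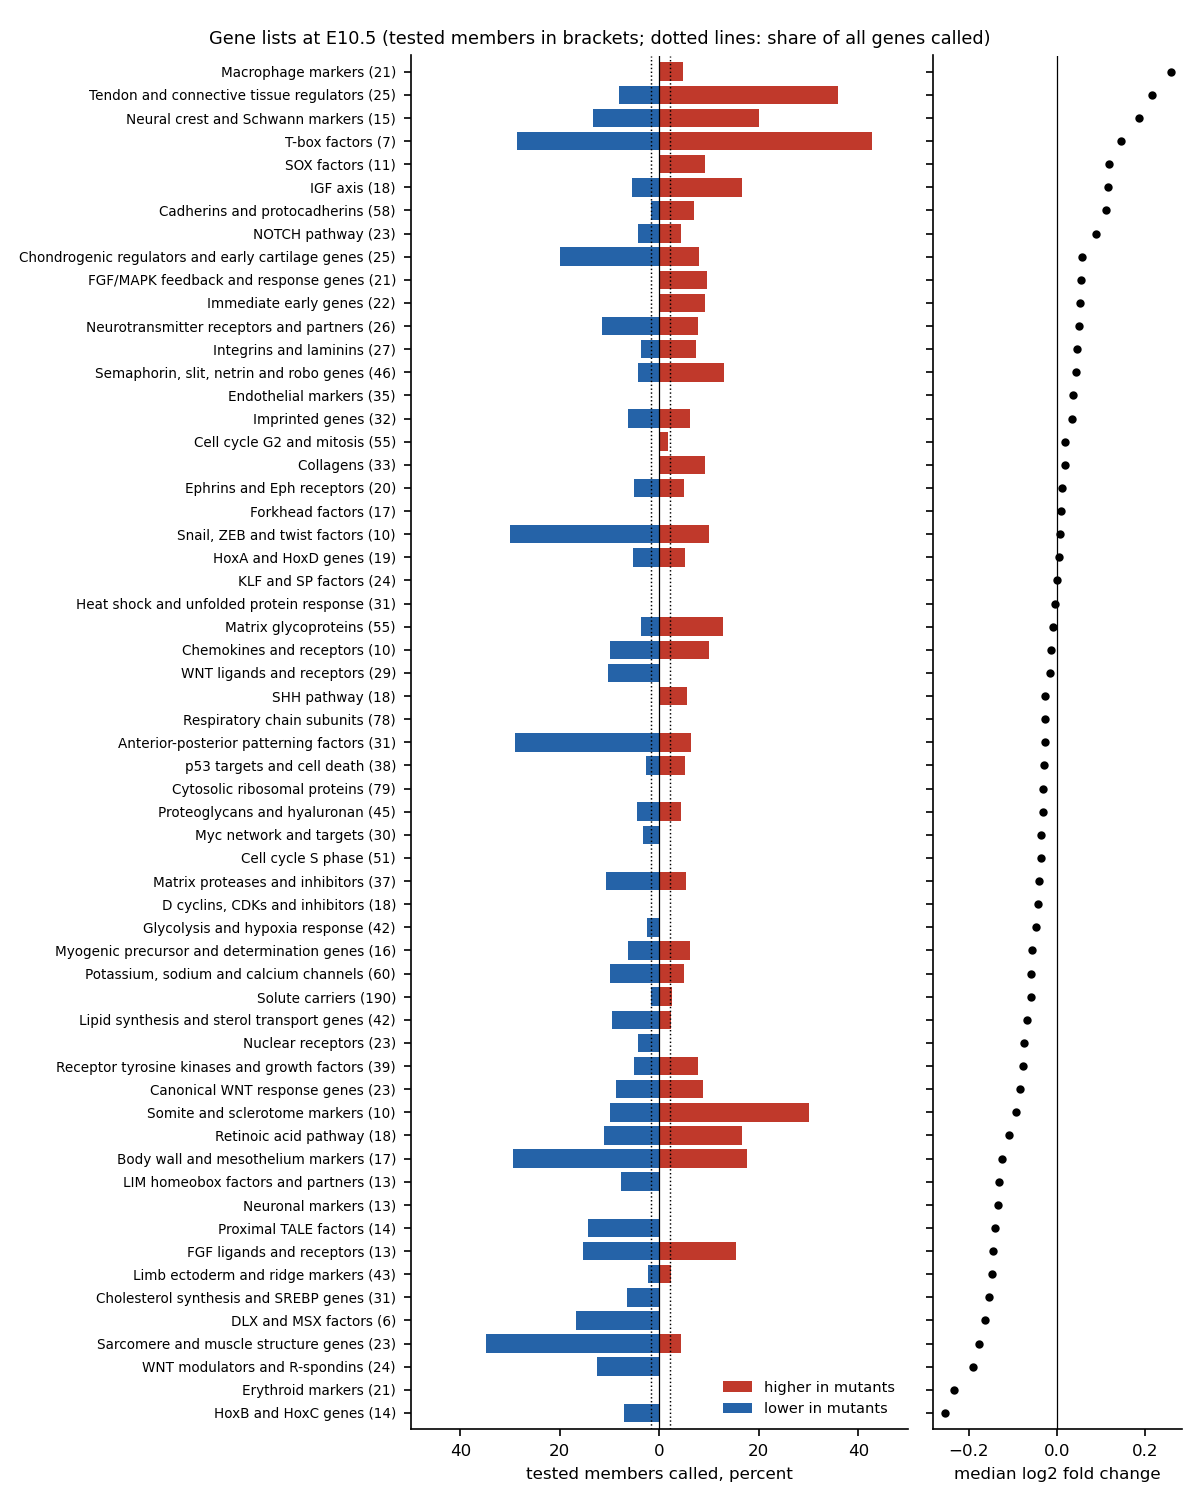
Percent of the tested genes of each list that were called at E10.5 (left), with higher genes to the right of 0 and lower genes to the left, dotted lines at 2.21% and 1.57% for all tested genes and the number tested beside each list name, and the median log2 fold change of the list (right). Tendon and connective tissue regulators (9 higher, 2 lower of 25) and anterior-posterior patterning factors (2 higher, 9 lower of 31) held the most called genes, and the list of SMAD response genes, which bears on the BMP panels, is left out of the plot.

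Lists of the cell cycle, ribosome, respiration, stress response and MYC network held 0 or 1 called gene each, where the 3.78% called among all tested genes comes to few genes in lists of this size. None of 51 genes of S phase was called by edgeR's exact test, with 1 at an unadjusted *P* under 0.05 and 0 by edgeR's quasi-likelihood test and DESeq2. Of 55 genes of G2 and mitosis, 1 was called, the condensin gene *Ncapd2*. It was at 259.9, 228 and 236 in wild types and 532, 379, 422 and 554 CPM in mutants (log2 fold change 0.97 ± 0.14, adjusted *P* = 1.5e-05), almost 2-fold higher and without overlap. The other condensin subunit genes *Ncapg*, *Ncaph*, *Smc2* and *Smc4* were not called (log2 fold changes 0.09, 0.14, 0.01 and 0.08). The exact test, the quasi-likelihood test and DESeq2 each called 0 of 18 D cyclins, CDKs and inhibitors (2 at an unadjusted *P* under 0.05), 0 of 79 ribosomal protein genes (2), 0 of 78 respiratory chain subunits (2), 0 of 31 heat shock and unfolded protein response genes (0), 0 of 24 KLF and SP factors (3) and 0 of 17 forkhead factors (0). *Mycn*, which promotes growth of limb mesenchyme, fell from 97.7 ± 5.37 CPM in wild types to 75.0 ± 5.62 CPM in mutants (log2 fold change -0.38 ± 0.07, adjusted *P* = 0.0019) and was the 1 called gene among 30 of the MYC network. *Pmaip1*, the pro-apoptotic gene also known as *Noxa*, was at 35.1, 47.1 and 50.3 in wild types and 109, 99.8, 83.6 and 86.8 CPM in mutants (log2 fold change 1.10 ± 0.18, adjusted *P* = 0.018), and the call was lost without WT 1, with an adjusted *P* of up to 0.20. This gene lies 5 to 10 Mb from *Smad4*, and the modified alleles and the segments linked to them cannot be told apart. *Mycn* was not called with mutants 1 and 2 alone (adjusted *P* = 0.13). *Pmaip1* was not called with mutants 4 and 5 alone (adjusted *P* = 0.13).

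Lipid metabolism was lower in a few enzymes. *Scd1*, the stearoyl-CoA desaturase that makes monounsaturated fatty acids, was at 123, 125 and 129 in wild types and 91.4, 105, 93.7 and 95.7 CPM in mutants (log2 fold change -0.38 ± 0.05, adjusted *P* = 8.7e-04). *Scd2*, a second desaturase of the same kind, was at 1542, 1581 and 1582 in wild types and 1263, 1366, 1254 and 1208 CPM in mutants (log2 fold change -0.30 ± 0.04, adjusted *P* = 0.0055). Both were lower in every mutant. Of 42 lipid synthesis and transport genes, 1 was higher (*Elovl7*) and 4 lower (*Scd1*, *Scd2*, *Me1* and *Osbpl3*), 2 of them in all 7 leave-one-out fits. The called share was 11.9% in this list and 6.45% among cholesterol synthesis genes, compared with 3.78% of all tested genes. Of 31 cholesterol synthesis genes 2 were lower (*Tm7sf2* and *Acat2*, neither in all 7 leave-one-out fits) and 0 higher by the exact test, with 8 at an unadjusted *P* under 0.05, 0 calls by the quasi-likelihood test and 1 by DESeq2. The median of the cholesterol list was -0.16. At E10.0 the same list had 24 lower and 0 higher genes by the exact test and a median of -0.51, where 6.46% of all tested genes were called in either direction and 3.23% were called lower. *Lss*, the cyclase that closes the sterol ring, moved from a log2 fold change of -0.75 at E10.0 to -0.16 at E10.5. *Dhcr7*, the last enzyme of the pathway, had -0.22 after -0.76. The difference between the stages passed the test for both (interaction of genotype and stage, edgeR's quasi-likelihood test, adjusted *P* = 0.080 and 0.080), but was lost for *Lss* in 6 and for *Dhcr7* in 5 of the 7 leave-one-out fits, with an adjusted *P* of up to 0.29 and 0.30. *Scd2* was not called with mutants 1 and 2 alone (adjusted *P* = 0.12).

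Muscle genes were the 2 genes with the largest decreases. *Myog*, the factor that commits myoblasts to differentiation (mm9 chromosome 1, 136186581 to 136189124, plus strand), was at 4.34, 2.90 and 7.43 in wild types and 1.005, 1.44, 0.190 and 0 CPM in mutants (log2 fold change -2.85 ± 0.84, adjusted *P* = 1.3e-04). *Actc1*, the actin of early striated muscle (chromosome 2, 113873018 to 113879284, minus strand), was at 8.61, 3.56 and 13.98 in wild types and 1.55, 2.30, 0.653 and 0.469 CPM in mutants (log2 fold change -2.79 ± 0.70, adjusted *P* = 4.7e-06). *Myh3*, embryonic myosin heavy chain, was at 3.90, 1.81 and 8.81 in wild types and 1.24, 1.27, 0.843 and 0.876 CPM in mutants (log2 fold change -2.18 ± 0.64, adjusted *P* = 4.1e-04). Lack of overlap was part of the rule that named these 3 genes, and the wild types differed widely among themselves. *Des*, the muscle intermediate filament desmin, fell from 4.58 ± 1.14 CPM in wild types to 1.96 ± 0.492 CPM in mutants (log2 fold change -1.22 ± 0.28, adjusted *P* = 2.3e-04). *Tnnt1*, a slow troponin, fell 1.83-fold (adjusted *P* = 0.011), and the call was lost without WT 3, with an adjusted *P* of up to 0.40. In all, 8 of 23 sarcomere genes were lower and 1 higher (*Ryr2*), 3 of them in all 7 leave-one-out fits. The called share of this list was 39.1%, compared with 3.78% of all tested genes. *Pax3*, *Lbx1*, *Met* and *Myf5*, genes of migrating precursors and early myoblasts, were not called (log2 fold changes -0.26, -0.17, -0.12 and -0.27), and of 16 myogenic precursor genes *Dmrt2* was higher and *Myog* lower. *Tnnt1* was not called with mutants 1 and 2 alone (adjusted *P* = 0.13).

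Body wall and mesothelium genes, which mark tissue next to the bud, were also lower in part. *Gata5*, a GATA factor of lateral plate derivatives (mm9 chromosome 2, 180059838 to 180069404, minus strand), was at 2.06, 1.58 and 1.76 in wild types and 0.358, 0.393, 0.218 and 0.219 CPM in mutants (log2 fold change -2.54 ± 0.25, adjusted *P* = 2.1e-12). *Wt1*, the mesothelial transcription factor (chromosome 2, 104966686 to 105013773, plus strand), was at 2.15, 3.23 and 3.80 in wild types and 1.72, 1.67, 0.653 and 0.438 CPM in mutants (log2 fold change -1.42 ± 0.49, adjusted *P* = 0.0052). *Aldh1a2*, which makes retinoic acid in the flank (chromosome 9, 71063596 to 71144050, plus strand), was at 7.46, 10.8 and 12.1 in wild types and 5.14, 5.13, 4.16 and 3.13 CPM in mutants (log2 fold change -1.20 ± 0.25, adjusted *P* = 1.5e-04). No mutant reached the wild-type range in these 3, and mutants 4 and 5 were the lowest. *Bnc2*, a zinc-finger factor of the same list that is also expressed in mesenchyme, rose from 14.5 ± 3.14 CPM in wild types to 22.2 ± 1.09 CPM in mutants (log2 fold change 0.61 ± 0.18, adjusted *P* = 2.3e-04). Among 17 markers 5 were lower (*Gata5*, *Aldh1a2*, *Wt1*, *Cyp1b1* and *Gata6*) and 3 higher (*Bnc2*, *Tbx18* and *Osr1*), 4 of them in all 7 leave-one-out fits. The called share was 47.1%, compared with 3.78% of all tested genes. The summed level of the list was 292 to 329.9 CPM in wild types and 317 to 345 CPM in mutants. *Wt1* was not called with mutants 1 and 2 alone (adjusted *P* = 0.32).

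At E10.0 several of the same muscle and mesothelial genes went the other way, although *Gata5* did not. *Myog* was then at 0.264, 0.0985 and 0.234 in wild types and 5.40, 2.08, 2.87 and 3.79 CPM in mutants (mutants 1, 3, 4 and 5), and its log2 fold change was 4.13 (adjusted *P* = 1.1e-06). *Wt1* was at 1.55, 1.81 and 0.849 in wild types and 5.10, 9.53, 9.72 and 4.88 CPM in mutants, for a log2 difference of 2.38 (adjusted *P* = 4.5e-07). *Aldh1a2* was at 5.22, 6.39 and 3.69 in wild types and 18.8, 33.1, 30.6 and 15.5 CPM in mutants, for a log2 difference of 2.27 (adjusted *P* = 2.0e-14). All E10.0 mutants were above all wild types in these genes, whereas all E10.5 mutants were below. The interaction passed the test for *Myog* (adjusted *P* = 0.015), *Actc1* (0.015), *Myh3* (0.035), *Wt1* (0.019), *Aldh1a2* (0.0034) and *Gata5* (0.079, with a log2 fold change of -0.16 at E10.0). It was lost for *Gata5* in 6 of the 7 leave-one-out fits (adjusted *P* up to 0.22) and for *Myh3* without mutant 5 (0.11). Without mutants 4 and 5 of both stages it passed for *Myog*, *Aldh1a2* and *Wt1* (0.013, 0.013 and 0.061) but not for *Actc1*, *Myh3* and *Gata5* (0.13, 0.33 and 0.28). At E10.0, 9 of the 23 sarcomere genes and 8 of the 17 body wall markers were higher and 0 were lower by the exact test, with list medians of 0.45 and 0.48, compared with -0.18 and -0.13 at E10.5. Of all tested genes, 6.46% were called in either direction at E10.0. The plot of both stages shows the levels embryo by embryo. Whether muscle and body wall cells take part in the other changes was not tested.

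**Figure D4:**
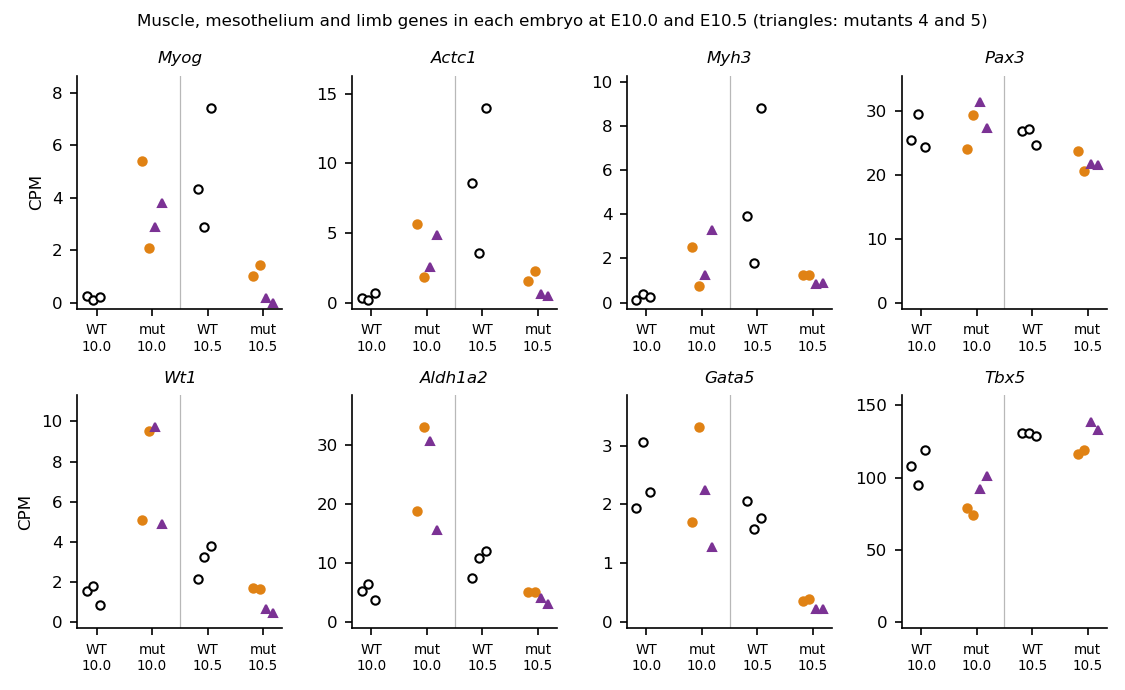
Expression in CPM (vertical axes, a scale for each gene) of muscle and body wall genes in each embryo at E10.0 and E10.5, with wild types and mutants as separate points. *Myog*, *Actc1*, *Wt1* and *Aldh1a2* are higher in mutants at E10.0 and lower in mutants at E10.5, whereas *Pax3* is not called at E10.5.

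Markers of other cell types differed in how many were called, compared with 3.78% of all tested genes. The summed level of 21 macrophage markers was 131 to 145 CPM in wild types and 147 to 171 CPM in mutants, with 1 gene higher, the coagulation factor gene *F13a1* (2.54 ± 0.118 CPM in wild types and 4.62 ± 1.21 CPM in mutants, log2 fold change 0.87 ± 0.19, adjusted *P* = 0.0087). Endothelial markers summed to 803 to 841 CPM and 809 to 900.0 CPM with 0 of 35 called (3 at an unadjusted *P* under 0.05, and 0 by the quasi-likelihood test and DESeq2). Erythroid markers, 0 of 21 called by the same tests (3), summed to 3717 to 5143 CPM in wild types and 2799 to 3963 CPM in mutants. Of 43 markers of ectoderm and ridge 1 was higher (*Fgf9*) and 1 lower (*Wnt4*), and their sum was 638 to 675 CPM compared with 486 to 652 CPM. Neural crest and Schwann markers gave 3 higher (*Sox8*, *Gfra3* and *Ngfr*) and 2 lower (*L1cam* and *Erbb3*) among 15 (33.3%), 2 of them in all 7 leave-one-out fits. Those of somite and sclerotome gave 3 higher (*Meox2*, *Dmrt2* and *Tcf15*) and 1 lower (*Pax1*) among 10 (40%), 2 of them in all 7 fits. The summed levels of both lists overlapped between the genotypes, at 298 to 315 CPM in wild types and 289 to 351 CPM in mutants for the former and 127 to 144 CPM and 132 to 146 CPM for the latter. None of 13 neuronal markers was called by edgeR's exact test, its quasi-likelihood test or DESeq2 (1 at an unadjusted *P* under 0.05). 

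Most of the E10.5 changes had the same direction at E10.0. At E10.0, 815 of the same 12610 genes were called, and 188 genes were called at both stages in the same direction, which is 39.41% of the E10.5 calls and 23.07% of the E10.0 calls, while 9 were called in opposite directions. The sign was the same at both stages in 415 of the 477 E10.5 genes (87.0%), compared with 65.69% of all tested genes, and no sample is shared between the stages. The mutants numbered 4 and 5 stood apart by *Rn45s* at E10.0 too, with 1.803% and 1.723% of their reads compared with 0.151% to 0.456% in the other E10.0 embryos, and its part in this agreement was not tested. Stage and genotype interacted in 20 genes (0.159% of those tested), of which 13 were called at E10.5, and in 7 to 20 genes without single E10.5 embryos (20 without mutant 1 and 7 to 13 in the others) and in 6 without mutants 4 and 5 of both stages. *Smoc1* had log2 fold changes of 0.91 and 0.93 at E10.0 and E10.5, *Chrna1* of 2.10 and 1.77 and *Pax1* of -2.87 and -2.61. *Calb2* differed between the stages, with -0.01 at E10.0 (adjusted *P* of the interaction 0.019, and 0.29 without mutants 4 and 5 of both stages). Several others were called only at E10.5, such as *Rgs5* (-0.27 and -1.79), *Gdf10* (0.14 and -1.50) and *Wfikkn2* (0.40 and 1.77), but for these the difference between the stages did not pass the test (adjusted *P* = 0.23, 0.25 and 0.31).

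Of 19 known SMAD responders tested, 15 were lower and 0 higher by the exact test (16 in either direction at an unadjusted *P* under 0.05, 13 calls by the quasi-likelihood test and 14 by DESeq2), with a median of -0.64. The called share was 78.95%, compared with 3.78% of all tested genes. *Msx2* fell from 38.0 ± 0.950 CPM in wild types to 12.1 ± 1.93 CPM in mutants (log2 fold change -1.66 ± 0.12, adjusted *P* = 2.6e-18). *Id1* fell from 33.6 ± 2.42 CPM in wild types to 13.4 ± 0.435 CPM in mutants (log2 fold change -1.33 ± 0.06, adjusted *P* = 6.0e-16). These genes overlap with panels that were drawn from the same embryos, so that this count is not independent evidence of its direction. 

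The position of called genes relative to *Smad4* was also examined. On chromosome 18, 26 of 342 genes were called, *Smad4* itself included (7.602%, compared with 3.78% of all tested genes). Apart from *Smad4*, 319 of them had coordinates. Within 5 Mb of *Smad4* 6 of 34 other genes were called (17.65%), 5 higher (*Tcf4*, *Poli*, *Ska1*, *Myo5b* and *Slc14a2*) and 1 lower (*Smad7*). The share was 7.317% (3 of 41) from 5 to 10 Mb, 13.46% (7 of 52) from 10 to 20 Mb and 4.688% (9 of 192) farther away. All mutants carry both modified *Smad4* alleles and the chromosome segments linked to them, and the alleles and the linked segments cannot be told apart in this design.

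**Figure D5:**
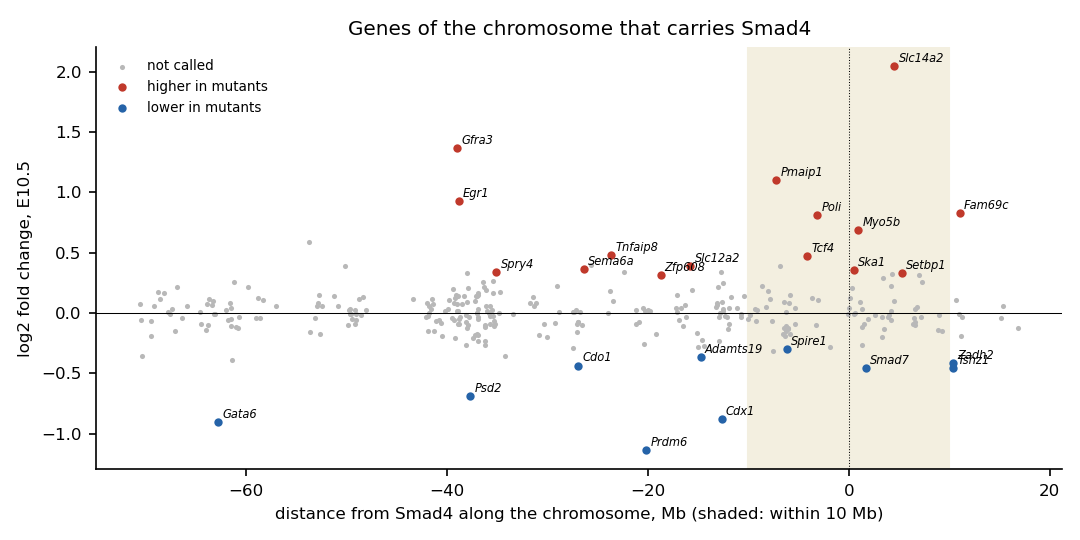
Log2 fold change at E10.5 (vertical axis) of the tested genes of chromosome 18 by distance from *Smad4* in Mb (horizontal axis), with called genes in colour. Within 5 Mb of *Smad4*, 6 of 34 genes are called, compared with 9 of 192 at more than 20 Mb.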

How the data were processed

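Forelimb buds of 14 embryos were sequenced as polyA RNA with single reads of 50 bases on a HiSeq instrument, from a library type given as unstranded. Per the labels and the submitters' processing notes, the authors used TopHat2 2.0.13, HTSeq and the mm9 build, and they deposited raw read counts for 23284 gene symbols per embryo. No strand was used, so that overlapping and antisense genes cannot be told apart, and genes with near-identical copies are uncertain. Lines of unassigned reads were dropped, and 0 columns of other samples were present.

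A gene was tested if 3 or more of the 7 E10.5 samples held 1 CPM or more. Libraries were normalised by TMM, common and tag-wise dispersions (prior of 10 degrees of freedom) were estimated over all 14 samples, and the exact test of edgeR, adjusted by Benjamini-Hochberg, compared the genotypes (called if the adjusted *P* was 0.1 or lower and the change 1.2-fold or more). Groups and replicate numbers were taken from the sample titles. SE of log2 fold changes were derived from the variances of TMM-normalised CPM between embryos by the delta method. The difference between stages was tested with edgeR's quasi-likelihood test of the interaction over all 14 samples, at the same adjusted *P*. Coordinates were matched by symbol to the mm9 annotation. The fits were tested on simulated data.

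Named genes were *Smad4*, the 15 higher and 15 lower called genes with the largest change among those with a mean of at least 2 CPM in the higher genotype and no overlap between embryos, up to 5 called members per list with the smallest *P*, and defining members of a list. Genes named only inside a count, *Scx*, *Rn45s* and the genes of the closing observations were chosen after their values were seen. The members, the 60 gene lists and the tests were chosen with earlier results of these data known. Some genes that meet the rule are not described. Alternatives were another test (quasi-likelihood, DESeq2), other scaling (RLE, upper quartile, *Rn45s* left out), other filters and thresholds, chromosomes X, Y and M left out, the E10.5 samples alone, a replicate block, and leaving out single embryos or mutant pairs. Replicates of a genotype differed by far more than sampling noise (chi-square per degree of freedom at least 20.3). The tools were edgeR 4.0.16 and DESeq2 1.42.0 in R 4.3.3, and pandas 2.3.3 and matplotlib 3.10.9 in Python 3.11.15.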

Additional observations from a re-analysis of the deposited data

Results flagged for a closer look

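The genotype difference at E10.5 departed from that at E10.0 for 12 of the named genes (edgeR's quasi-likelihood test of the interaction, adjusted *P* at most 0.1). The difference of the log2 fold changes, E10.5 minus E10.0, was -6.88 for *Myog*, -5.90 for *Actc1*, -5.08 for *Myh3* and -1.82 for *Tnnt1*, the muscle genes. It was -3.75 for *Wt1*, -3.45 for *Aldh1a2*, -2.37 for *Gata5* and -0.92 for *Cyp1b1*, the markers of body wall and mesothelium, and also -2.78 for *Acta2*, a smooth muscle actin. In contrast it was positive for *Calb2* (1.61), *Dhcr7* (0.54) and *Lss* (0.59). *Tnnt1* and *Acta2* were called lower at E10.5, and in both the call was lost without WT 3, as was that of *Cyp1b1* without WT 1. The interaction itself passed in all 7 leave-one-out fits for *Myog*, *Actc1*, *Aldh1a2*, *Wt1*, *Calb2* and *Cyp1b1*, and without mutants 4 and 5 of both stages it passed for *Myog*, *Aldh1a2* and *Wt1* alone of the 12.

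Single mutants at E10.5 lay far from the other 3 by Dixon's criterion in 11 named genes, where chance alone flags about 1 in 20 groups and 190 genes were examined. Mutant 1 was high in *Col12a1* (52.7 CPM), *Fat4* (88.1 CPM) and *Tcf4* (472 CPM) and low in *Kcnip3* (2.57 CPM). Mutant 2 was high in *Hapln1* (81.1 CPM) and *Irf5* (1.27 CPM) and low in *Slc48a1* (20.5 CPM) and *Sox8* (11.6 CPM). Mutant 4 was low in *Twist1* (109 CPM) and *Sox6* (15.3 CPM), and mutant 5 was low in *Efna3* (2.38 CPM).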

How the results depend on the processing

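Relative to 477 called genes, the count was 343 by the quasi-likelihood test (339 shared), 513 by DESeq2 (452 shared) and 459 to 566 under the other scalings, filters and sample sets, except for 370 at an adjusted *P* of 0.05. Higher genes made up 58.49% of the calls and 56.49% to 65.61% of them under all alternatives other than mutants 4 and 5 alone (52.1%). Mutants 1 and 2 alone gave 327 calls, of which 114 were lower, and mutants 4 and 5 alone gave 714, of which 342 were lower. Without single embryos the counts were 285 to 465 for all calls, 161 to 273 for higher and 124 to 192 for lower genes, with the fewest in all and higher genes without WT 2. The lower count was 124 without WT 2 and without mutant 5, 125 without WT 3 and 130 without WT 1. For the interaction, 20 genes became 73 by DESeq2, 6 without mutants 4 and 5 of both stages and 7 to 20 without single embryos (20 without mutant 1, 13 without WT 2, 10 without mutant 2 or WT 1, 9 without WT 3, 8 without mutant 4 and 7 without mutant 5). With a replicate block the quasi-likelihood test called 410 genes, of which 269 were higher, and 0 interactions (1091 at an unadjusted *P* under 0.05). Same-numbered embryos did not deviate together in the 2 pairs available (correlations -0.2631 and -0.0321, other pairs -0.3354 to 0.389). With so few pairs it cannot be told whether such embryos share more than a number. The median of the patterning factors was -0.20, of cartilage genes -0.043, of body wall markers -0.27 and of SMAD responders -0.80 with mutants 1 and 2 alone, and that of body wall markers was -0.26 with mutants 4 and 5 alone. Without single embryos the medians ranged from -0.06 to 0.00654 for patterning factors, -0.00437 to 0.11 for cartilage genes, 0.18 to 0.24 for tendon genes, -0.07 to 0.06 for matrix glycoproteins, -0.21 to -0.13 for cholesterol genes, -0.24 to -0.17 for sarcomere genes, -0.34 to -0.12 for body wall markers and -0.72 to -0.59 for SMAD responders. The cause of these shifts was not tested. Of 3986 values of the named genes under the alternatives, 3523 stayed on the same side of the threshold, 451 lost and 12 gained a call, and 0 changed sign after being called. Leaving out an embryo leaves fewer samples, and genes of about 1 CPM rest on few reads.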

Other observations

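Some of the genes that separated the genotypes belonged to no list, and the following were chosen after their values were seen. *Nrk*, an X-linked kinase of the Jun kinase pathway, was at 27.6, 21.8 and 33.9 in wild types and 68.7, 46.2, 54.8 and 58.3 CPM in mutants (log2 fold change 1.04 ± 0.22, adjusted *P* = 3.0e-06). *Cttnbp2*, a cortactin-binding protein of dendritic spines, was at 14.4, 17.3 and 18.7 in wild types and 33.6, 32.5, 34.3 and 34.7 CPM in mutants (log2 fold change 1.005 ± 0.11, adjusted *P* = 5.5e-12). *Lrig1*, a transmembrane inhibitor of EGF receptor signalling, was at 44.5, 40.4 and 44.6 in wild types and 68.1, 65.5, 70.1 and 62.3 CPM in mutants (log2 fold change 0.62 ± 0.06, adjusted *P* = 1.2e-07). All mutants exceeded all wild types in these 3 genes. *Ism1*, a secreted isthmin, rose from 6.64 ± 0.563 CPM in wild types to 12.9 ± 0.908 CPM in mutants (log2 fold change 0.96 ± 0.09, adjusted *P* = 3.6e-07), and *Enpp2*, the enzyme autotaxin that makes lysophosphatidic acid, rose from 12.8 ± 1.99 CPM in wild types to 24.7 ± 3.05 CPM in mutants (log2 fold change 0.94 ± 0.16, adjusted *P* = 0.0034). *Nfatc2*, a calcium-regulated transcription factor, and *Dab1*, an adaptor of reelin signalling, rose 2.14-fold and 2.12-fold (adjusted *P* = 5.9e-06 and 8.5e-09). *Sv2a*, a synaptic vesicle protein, fell from 6.99 ± 0.182 CPM in wild types to 4.52 ± 0.592 CPM in mutants (log2 fold change -0.62 ± 0.10, adjusted *P* = 0.0014). At E10.0 the log2 fold change had the same sign in each of them, at 0.52 for *Nrk*, 0.60 for *Cttnbp2*, 0.43 for *Lrig1*, 0.53 for *Ism1*, 0.78 for *Enpp2*, 0.57 for *Nfatc2*, 0.36 for *Dab1* and -0.30 for *Sv2a*.

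*Ncapd2* was higher in mutants at E10.0 too, at 245, 248 and 266 in wild types and 506, 238, 454 and 452 CPM in mutants for mutants 1, 3, 4 and 5. Mutant 3 lay at the wild-type level, and the other E10.0 mutants lay where all mutants of E10.5 did. The adjusted *P* at E10.0 was 0.0056 (edgeR's exact test, log2 fold change 0.70).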
